A study of Mus musculus with 6 samples.

Results

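The mouse genes named Gpr and a number encode receptors that were found by sequence likeness before a ligand was known, together with a few membrane proteins that were given such a name early. They were chosen by symbol: every gene row whose symbol starts with Gpr and a digit, without Gpr119, Gpr84 and Gpr81. This gave 92 of the 23179 rows, and the 36 with a mean of at least 0.5 FPKM (sequenced fragments scaled by transcript length and by library size) over the 6 libraries are described. The libraries were made from total RNA of pancreatic islets, the groups of endocrine cells within the pancreas. The donor mice were of strain C57BL/6J and 10 to 14 weeks old, and they lacked Ffar3, the gene for a receptor of short-chain fatty acids (genotype Ffar3-/-, here KO), or were wild type (WT). Each group had 3 libraries, and the islets for an RNA extraction were selected from isolations pooled over a pair of pancreata. The labels give no sex, deletion design, Cre line or treatment, and they do not say whether libraries of a group came from different mice, so p-values measure the spread between these libraries.

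G protein-coupled receptors cross the cell membrane with a bundle of helices and pass a signal to heterotrimeric G proteins inside the cell. In beta cells, receptors coupled to Gs raise cyclic AMP and those coupled to Gq raise calcium, and both can strengthen insulin secretion, while receptors coupled to Gi lower cyclic AMP. Some Gpr-numbered receptors signal without a bound ligand, some sense protons, lipids or amino acids, and the adhesion receptors carry long extracellular parts that bind matrix or other cells.

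Of the 36 genes, 11 passed the test of KO against WT, 5 higher and 6 lower in KO. The background was larger: at the threshold of 0.05 for the adjusted p, limma called 37.7% of the 12691 rows tested (19.3% higher in KO, 18.4% lower), so the 11 genes (30.6% of the 36) are no excess. All differences below are KO minus WT in log2(FPKM + 1), a scale that compresses changes of low values. The median log2 difference was 0.04 over the 36 genes and -0.01 over all rows. With libraries set to equal sums outside the acinar genes, the median over all rows was -0.21 (-0.14 with insulin rows also left out of the sums). The calls with equal sums outside the acinar genes were 553 higher and 1166 lower over all rows and 2 higher and 3 lower among the 36 genes. Scaling each library by its median ratio to the geometric mean of the 6 libraries (factors of 0.987 to 1.006) left 5 higher and 6 lower among the 36 genes. In 16 of the 36 genes the KO and WT libraries did not overlap, 7 with KO above and 9 with KO below. Over all rows 55.1% had no overlap, 27.3% above and 27.9% below. Among the 7 genes with KO above, Gpr171, Gpr31c, Gpr63 and Gpr25 had WT means under 0.5 FPKM and reached the minimum through KO. The largest differences past the threshold were a rise of Gpr161 and falls of Gpr6 and Gpr142. The summed level of the 36 genes was 269, 258 and 265 FPKM in KO replicates 1, 2 and 3, against 282, 262 and 281 FPKM in WT replicates 1, 2 and 3.

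Facts of the libraries touch these values. Ffar3 stood at 0, 0 and 0.105 FPKM in KO, against 4.69, 5.26 and 6.68 FPKM in WT, so the labels matched the targeted gene (log2 difference -2.65, SE 0.13, limma adjusted p = 0.00024; exact two-sided permutation p = 0.1, the smallest that 3 against 3 libraries allow). The summed level of 15 acinar genes, which make digestive enzymes outside the islets, was 21052, 209430 and 446227 FPKM in KO replicates 1, 2 and 3, against 22423 to 35308 FPKM in WT. Of 10 beta cell markers 8 were above 0 in the WT libraries. The other 2 are the insulin genes. Ins2 was listed at 0 in all 6 libraries, and Ins1 at 0, 43721 and 48334 FPKM in KO replicates 1, 2 and 3 and at 0 in all 3 WT libraries, where a 0 can be a failed estimate. Sums over all genes therefore lack insulin to an unlike degree, and so do the equal sums outside the acinar genes, which hold Ins1 in KO replicates 2 and 3 only. The 6 duct markers summed to 164, 213 and 221 FPKM in KO, against 155 to 166 FPKM in WT. One of them, Krt19, rose to 3.35, 23.3 and 30.8 FPKM in KO, against 0.825 to 1.12 FPKM in WT (adjusted p = 0.017), in the order of the acinar sum. Krt7, the most abundant duct marker, was at 130.7, 112 and 121 FPKM in KO, against 130.9 to 137 FPKM in WT (adjusted p = 0.13). Of the 5 duct markers tested, 3 lay higher in all KO libraries than in all WT libraries and 1, Krt7, lower. Total depth is unknown. Low values come in steps of 1 fragment, and by the commonest ratio of such steps 1 FPKM stood for 59.6% as many fragments in KO replicate 3 as in WT replicate 1, for 89.4% as many in KO replicate 2 and for 108% to 119% as many in KO replicate 1 and WT replicates 2 and 3. Low values in KO replicate 3 thus rested on the fewest fragments. The 6 alpha cell markers summed to 6519 to 12491 FPKM in KO, against 18682 to 22882 FPKM in WT. The 4 delta cell markers summed to 2581 to 4640 FPKM in KO, against 5096 to 5375 FPKM in WT. Nearly all of the alpha sum was Gcg and of the delta sum Sst, and neither passed (adjusted p = 0.091 and 0.093). Of the 6 alpha markers 3 were called lower, and of the 4 delta markers 1. The part of cell makeup in the receptor values was not tested. In these mixed tissues, fewer cells of a type and less RNA per cell cannot be told apart.

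The promoters of the genes at the centre of the results are shown first, because Gpr6, the largest fall past the threshold, carries a complete cyclic AMP response element (CRE), the site bound by CREB proteins. Gpr3 is its close relative, and Gpr142 and Gpr161 are the largest other fall and the largest rise past the threshold. Each run is read 5′ to 3′ on the strand of the gene from 250 bases before its start to 50 bases after it (RefSeq, GRCm38.p6). Where RefSeq gives a gene several starts, the upstream one is shown. Capitals mark the CRE TGACGTCA, its half-site TGACG and the AP-1 site TGACTCA, each searched on both strands (the half-site is part of the CRE).
Gpr6, chr10:41072241-41072540, minus strand: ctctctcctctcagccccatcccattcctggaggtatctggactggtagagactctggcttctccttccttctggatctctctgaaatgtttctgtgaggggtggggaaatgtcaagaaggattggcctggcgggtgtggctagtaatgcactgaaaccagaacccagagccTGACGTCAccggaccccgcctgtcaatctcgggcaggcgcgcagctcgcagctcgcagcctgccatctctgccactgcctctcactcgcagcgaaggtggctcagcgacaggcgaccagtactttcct
Gpr3, chr4:133212487-133212786, minus strand: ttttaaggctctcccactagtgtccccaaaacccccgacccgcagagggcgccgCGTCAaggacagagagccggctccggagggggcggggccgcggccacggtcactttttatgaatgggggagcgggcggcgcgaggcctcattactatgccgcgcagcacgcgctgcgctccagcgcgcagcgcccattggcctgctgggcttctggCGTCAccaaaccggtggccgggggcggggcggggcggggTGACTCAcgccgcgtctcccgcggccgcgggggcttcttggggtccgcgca
Gpr142, chr11:114798674-114798973, plus strand: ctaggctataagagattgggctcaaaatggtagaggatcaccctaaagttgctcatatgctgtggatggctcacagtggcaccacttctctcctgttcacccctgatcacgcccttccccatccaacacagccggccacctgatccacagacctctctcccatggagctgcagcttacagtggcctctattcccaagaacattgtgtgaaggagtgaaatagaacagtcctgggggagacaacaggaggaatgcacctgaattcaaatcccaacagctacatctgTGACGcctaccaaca
Gpr161, chr1:165295516-165295815, plus strand: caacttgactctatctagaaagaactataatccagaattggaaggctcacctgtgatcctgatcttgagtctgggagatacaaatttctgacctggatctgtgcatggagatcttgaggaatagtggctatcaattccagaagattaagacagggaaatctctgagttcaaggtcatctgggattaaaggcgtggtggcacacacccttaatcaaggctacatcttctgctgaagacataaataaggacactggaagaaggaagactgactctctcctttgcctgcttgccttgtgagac

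RefSeq promoters were matched for 29 of the 36 genes. The CRE of Gpr6 starts 78 bases before the gene's start, and Gpr6 was the only one of the 29 with the full site, which 2.03% of 27025 genes with a promoter in the table hold. The half-site was in 13 of the 29 (44.8%), against 23.0% of all genes, and the AP-1 site in 4 (13.8%), against 5.95%. The 29 genes have more windows each (1.48) than all genes (1.22), and a gene counts if any window matches. Per window, the half-site was in 34.9% of 43, against 20.8% of all 32851, and the AP-1 site in 9.30%, against 5.20%. The 29 genes had passed a minimum level in these libraries, while all genes with a promoter were counted whatever their level. The part of this choice in the percentages was not tested, so they do not show a trait of these receptors. In the windows shown, Gpr3 holds the half-site and an AP-1 site but not the full CRE, Gpr142 holds 1 half-site, and Gpr161 holds none of these letters. A match describes the letters of the window and shows no binding.

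Gpr3, Gpr6 and Gpr12 form a small family of receptors that are active without a ligand, couple to Gs and keep cyclic AMP raised. Gpr6 (chromosome 10, 41069977 to 41072285, GRCm38) measured 1.65, 0.966 and 0.383 FPKM in KO replicates 1, 2 and 3, against 6.46, 5.72 and 5.68 FPKM in the WT libraries. All KO libraries lay far below all WT libraries. Gpr6 fell to 0.998 ± 0.633 FPKM in KO, against 5.96 ± 0.438 FPKM in WT (mean ± SD, n = 3 each; log2 difference -1.85, SE 0.22, limma adjusted p = 0.0018), a ratio of means of 0.168. The KO values were lower where the acinar sum and Krt19 were higher. KO replicate 1, whose acinar sum was below that of each WT library, differed from WT by -1.39 on the log2 scale. A fit of KO replicate 1 alone against WT has 1 KO library, so here and below its p takes the spread from the WT libraries and assumes that KO libraries vary alike. Gpr3 was at 1.19, 0.578 and 0.5001 FPKM in KO, against 1.71, 1.38 and 0.915 FPKM in WT. Its groups overlapped, and it did not pass (log2 difference -0.42, 95% interval -0.86 to 0.03, adjusted p = 0.12), though without KO replicate 1 it was called lower (adjusted p = 0.027). Gpr12 was listed at 0 in 5 libraries and at 0.0227 FPKM in WT replicate 2.

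The immediate early genes, which cyclic AMP and calcium switch on, moved in the same direction as Gpr6. The sum of 9 of them (Fos, Fosb, Junb, Egr1, Egr4, Nr4a1, Nr4a2, Atf3 and Arc) was 754, 592 and 557 FPKM in KO replicates 1, 2 and 3, against 2758, 2274 and 2865 FPKM in WT. All 9 fell past the threshold, with a median log2 difference of -2.09. This list was chosen with earlier results of these data known, and its part in the Gpr6 result was not tested.

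**Figure D1:**
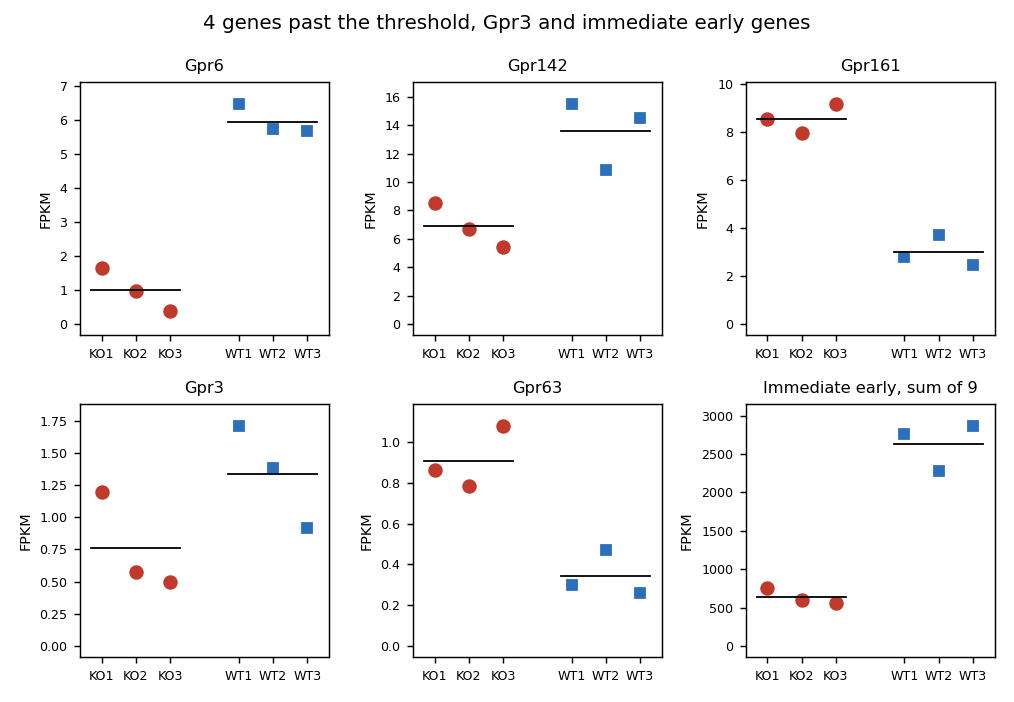
FPKM (vertical axis, linear) of Gpr6, Gpr142, Gpr161, Gpr3 and Gpr63 and the summed FPKM of 9 immediate early genes in each KO library (red circles) and each WT library (blue squares), with black lines at the group means. Gpr6 and Gpr142 lie lower in all 3 KO libraries, Gpr161 and Gpr63 lie higher in all 3, and the Gpr3 groups overlap.

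The SREB family (Gpr27, Gpr85 and Gpr173) is a group of orphan receptors that are among the most conserved in vertebrates and are abundant in brain. Both members that were tested fell. Gpr27 (chromosome 6, 99692679 to 99695066), which in mouse beta cells has been linked to insulin production, was at 11.8, 8.52 and 9.20 FPKM in KO, against 13.3, 14.9 and 12.9 FPKM in WT. It fell to 9.85 ± 1.74 FPKM in KO, against 13.7 ± 1.09 FPKM in WT (log2 difference -0.45, SE 0.12, adjusted p = 0.025). KO replicate 1 lay nearest to WT, and the groups did not overlap. Gpr85 (chromosome 6, 13834458 to 13839942) fell to 2.97 ± 0.259 FPKM in KO, against 4.12 ± 0.325 FPKM in WT (log2 difference -0.37, SE 0.09, adjusted p = 0.016). It was at 3.27, 2.81 and 2.84 FPKM in KO, against 3.81, 4.45 and 4.10 FPKM in WT. Gpr173 was under the minimum and not tested, at 0.185 ± 0.0471 FPKM in KO and 0.310 ± 0.0103 FPKM in WT, again without overlap.

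The calls of Gpr27 and Gpr85 depended on which libraries were used, though both held without KO replicate 1. Gpr27 lost its call without WT replicate 1, 2 or 3 (adjusted p = 0.072, 0.084 and 0.063) and without KO replicate 2 or 3 (0.068 and 0.059). Gpr85 lost it without WT replicate 2 or 3 (0.061 and 0.063). In KO replicate 1 alone, the log2 differences were -0.20 for Gpr27 (adjusted p = 0.19) and -0.26 for Gpr85 (adjusted p = 0.12), and with a term for the acinar level they were -0.27 (adjusted p = 0.091) and -0.28 (adjusted p = 0.069).

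Among the class A receptors with a known or proposed ligand, 1 of 5 passed. Gpr142 (chromosome 11, 114798924 to 114806745), a receptor of tryptophan on beta cells that enhances insulin secretion, was at 8.54, 6.66 and 5.42 FPKM in KO, against 15.5, 10.9 and 14.5 FPKM in WT. All KO libraries lay below all WT libraries. Gpr142 fell to 6.87 ± 1.57 FPKM in KO, against 13.6 ± 2.43 FPKM in WT (log2 difference -0.90, SE 0.17, adjusted p = 0.0092), a ratio of means of 0.505. It stayed past the threshold in the fit with a term for the acinar level (-0.68, adjusted p = 0.036) but not in KO replicate 1 alone (-0.60, adjusted p = 0.063). Beside it, 3 of 9 tested beta cell markers fell (33.3%, against 37.7% of all rows called), with a median log2 difference of -0.22 over the list. Those that fell were Mafa (log2 difference -1.63, adjusted p = 0.0049), Ucn3 (-0.86, adjusted p = 0.0031) and Nkx6-1 (-0.66, adjusted p = 0.0075). The list of 9 holds Ins1, which was listed at 0 in WT and did not pass, and without it the median of the other 8 was -0.23. The zinc receptor Gpr39 was at 1.20 ± 0.106 FPKM in KO and 1.62 ± 0.0830 FPKM in WT (log2 difference -0.25, adjusted p = 0.054), with groups that did not overlap. Its exons share 39.9% of their bases with Lypd1 on the other strand, and with the strand setting not given the reads of the pair cannot be told apart. Gpr31c was at 0.480, 0.832 and 0.889 FPKM in KO, against 0.456, 0.474 and 0.448 FPKM in WT (adjusted p = 0.15, and 0.031 without KO replicate 1).

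Receptors of immune cells spread widely between the KO libraries. Those given by library here, other than Gpr132, were chosen after their values were seen. Gpr171, a receptor of the neuropeptide BigLEN that is also found in T cells, measured 1.16, 2.52 and 0.213 FPKM in KO replicates 1, 2 and 3, against 0, 0.0190 and 0.0362 FPKM in the WT libraries. All KO libraries lay above all WT libraries, but it did not pass (log2 difference 1.04, SE 0.35, adjusted p = 0.053). It was called higher without KO replicate 3 (1.44, adjusted p = 0.0061). Gpr132, a receptor of oxidised fatty acids grouped with the proton sensors, measured 2.22, 7.38 and 0.467 FPKM in KO, against 0.559, 0.555 and 0.453 FPKM in WT. KO replicates 1 and 2 were high, and KO replicate 3 lay among the WT libraries (log2 difference 1.16, 95% interval -0.15 to 2.48, adjusted p = 0.13). Without KO replicate 3 its log2 difference was 1.77 (adjusted p = 0.016).

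The oxysterol receptor Gpr183, which guides B cells, was at 0.783, 2.15 and 0.196 FPKM in KO, against 0.458, 0.303 and 0.460 FPKM in WT (adjusted p = 0.32). The proton sensor Gpr65 was at 0.908, 1.98 and 0.353 FPKM in KO, against 0.729, 1.002 and 0.744 FPKM in WT (adjusted p = 0.74). In both genes KO replicate 2 was the highest library and KO replicate 3 the lowest. Of the exon bases of Gpr65, 24.7% overlap an antisense gene. Gpr18, a receptor of lymphoid tissue just under the minimum with a mean of 0.490 FPKM, was at 1.05, 1.70 and 0.0697 FPKM in KO, against 0.0415, 0 and 0.0729 FPKM in WT. Gpr55, a lysophosphatidylinositol receptor, was at 0.572, 0.631 and 0.0291 FPKM in KO and listed at 0 in all 3 WT libraries. Gpr174, a lysophosphatidylserine receptor of lymphocytes, measured 0.198 and 0.583 FPKM in KO replicates 1 and 2 and was listed at 0 in the other 4 libraries.

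Within KO, the sum of lymphocyte markers followed the same order of libraries. In KO replicate 3 this sum lay above WT, while Gpr183 and Gpr65 lay below WT there. The sum of 10 B and T cell markers was 30.7, 62.6 and 8.99 FPKM in KO replicates 1, 2 and 3, against 6.65, 7.54 and 6.76 FPKM in WT. Most of the WT sum was Cd79a. Without it, the other 9 summed to 14.97, 34.6 and 1.39 FPKM in KO, against 0.0430, 0.123 and 0.0223 FPKM in WT. Ms4a1, Pax5, Cd8a, Cd3d and Cd3e were listed at 0 in all 3 WT libraries. The 8 macrophage markers in the files summed to 132, 199 and 78.8 FPKM in KO, against 101 to 115 FPKM in WT. Without Lyz2, the other 7 summed to 98.8, 104 and 68.5 FPKM in KO, against 91.4 to 104 FPKM in WT, and 1 of them, C1qa, fell (adjusted p = 0.037). The part of these cells in the receptor values was not tested.

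**Figure D2:**
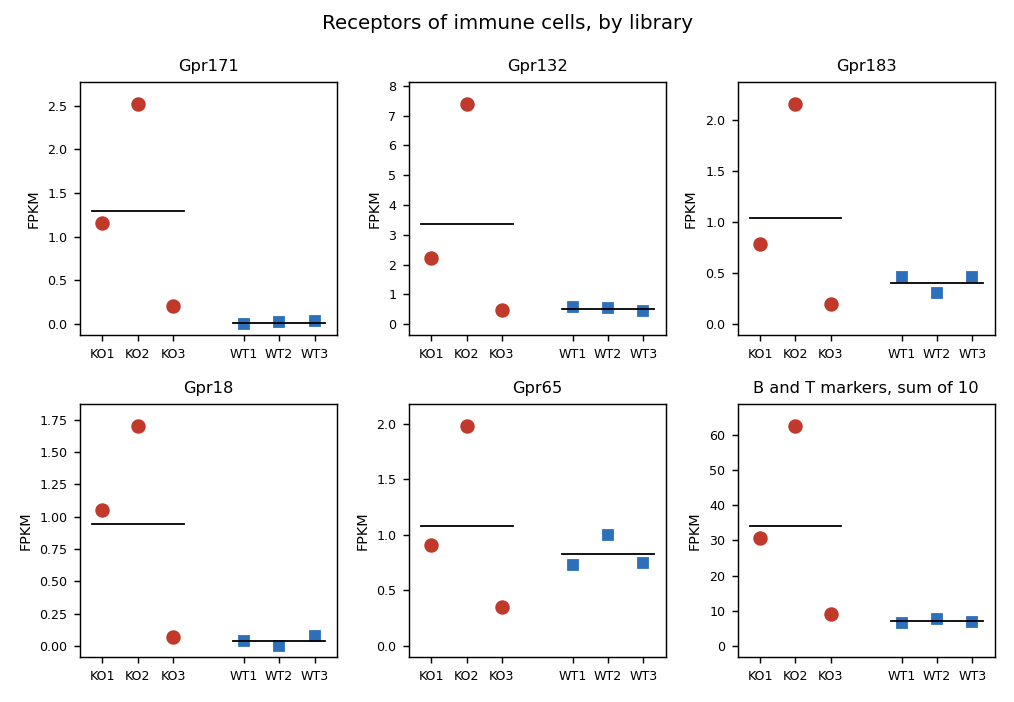
FPKM (vertical axis, linear) of Gpr171, Gpr132, Gpr183, Gpr18 and Gpr65 and the summed FPKM of 10 B and T cell markers in each KO library (red circles) and each WT library (blue squares), with black lines at the group means. In every panel KO replicate 2 is the highest library, KO replicate 1 the next KO library, and KO replicate 3 the lowest KO library.

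Of the 3 proton-sensing receptors at or above the minimum (Gpr4, Gpr65 and Gpr132), limma called 0, and 0 had an unadjusted p under 0.05. Gpr4, expressed in endothelium, was at 1.19, 1.77 and 1.11 FPKM in KO, against 1.14, 1.31 and 1.03 FPKM in WT (log2 difference 0.12, 95% interval -0.19 to 0.42). It lies on chromosome 7, as Ffar3 does, at a distance of 11.6 Mb.

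Of 11 other class A orphans, 3 passed, all higher in KO. Of these, Gpr63 and Gpr25 had WT means under the minimum of 0.5 FPKM (0.343 and 0.388 FPKM). They were tested only because KO was higher, so the minimum favoured their direction. At a mean of at least 1 FPKM, where neither was tested, 1 gene of this class passed. Gpr161 (chromosome 1, 165295789 to 165326745), a receptor of the primary cilium that raises cyclic AMP and restrains Hedgehog signalling, was at 8.55, 7.97 and 9.17 FPKM in KO, against 2.81, 3.72 and 2.46 FPKM in WT. The KO libraries were alike and lay well above all WT libraries. Gpr161 rose to 8.56 ± 0.599 FPKM in KO, against 3.00 ± 0.652 FPKM in WT (log2 difference 1.27, SE 0.12, adjusted p = 0.00097), a ratio of means of 2.86. KO replicate 1 alone also differed from WT by 1.27. Gpr63 (chromosome 4, 24966407 to 25009233), an orphan expressed in brain, was at 0.862, 0.785 and 1.08 FPKM in KO, against 0.299, 0.469 and 0.261 FPKM in WT. It rose to 0.909 ± 0.152 FPKM in KO, against 0.343 ± 0.111 FPKM in WT (log2 difference 0.51, SE 0.11, adjusted p = 0.015), and lost the call without WT replicate 1 (0.059) or WT replicate 3 (0.058).

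Gpr25, an orphan of lymphoid cells, was at 0.721, 0.625 and 0.745 FPKM in KO, against 0.438, 0.374 and 0.352 FPKM in WT (log2 difference 0.29, SE 0.10, adjusted p = 0.04999). It was the gene nearest above the minimum and only just past the threshold. It lost the call when any single library was left out: without KO replicates 1, 2 or 3 the adjusted p was 0.078, 0.058 and 0.095, and without WT replicates 1, 2 or 3 it was 0.10, 0.12 and 0.13. Of its exon bases, 41.6% overlap an antisense gene. Unlike the receptors of immune cells above, Gpr25 was as high in KO replicate 3 as in the other KO libraries.

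The other 8 orphans of this class did not pass. Gpr146, once proposed as a receptor of proinsulin C-peptide, was at 7.45, 6.78 and 6.92 FPKM in KO, against 6.86, 4.70 and 5.31 FPKM in WT (log2 difference 0.29, 95% interval 0.01 to 0.58, adjusted p = 0.092, and 0.030 without WT replicate 1). Gpr135 was at 0.947, 0.527 and 0.306 FPKM in KO, against 1.15, 0.885 and 0.967 FPKM in WT (adjusted p = 0.12, and 0.019 without KO replicate 1). Gpr19 was at 4.75 ± 0.294 FPKM in KO and 5.19 ± 0.774 FPKM in WT. The endothelial receptor Gpr182 was at 1.02 ± 0.399 FPKM in KO and 0.937 ± 0.234 FPKM in WT, while 8 endothelial markers summed to 133 to 155 FPKM in KO, against 142 to 182 FPKM in WT. Of these markers Cdh5 was called higher (adjusted p = 0.010), and Kdr, Tie1 and Emcn lower (adjusted p = 0.022, 0.044 and 0.024). The other endothelial markers were not called. Gpr62, Gpr75, Gpr160 and Gpr162 had log2 differences between -0.22 and 0.13, with overlapping groups.

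**Figure D3:**
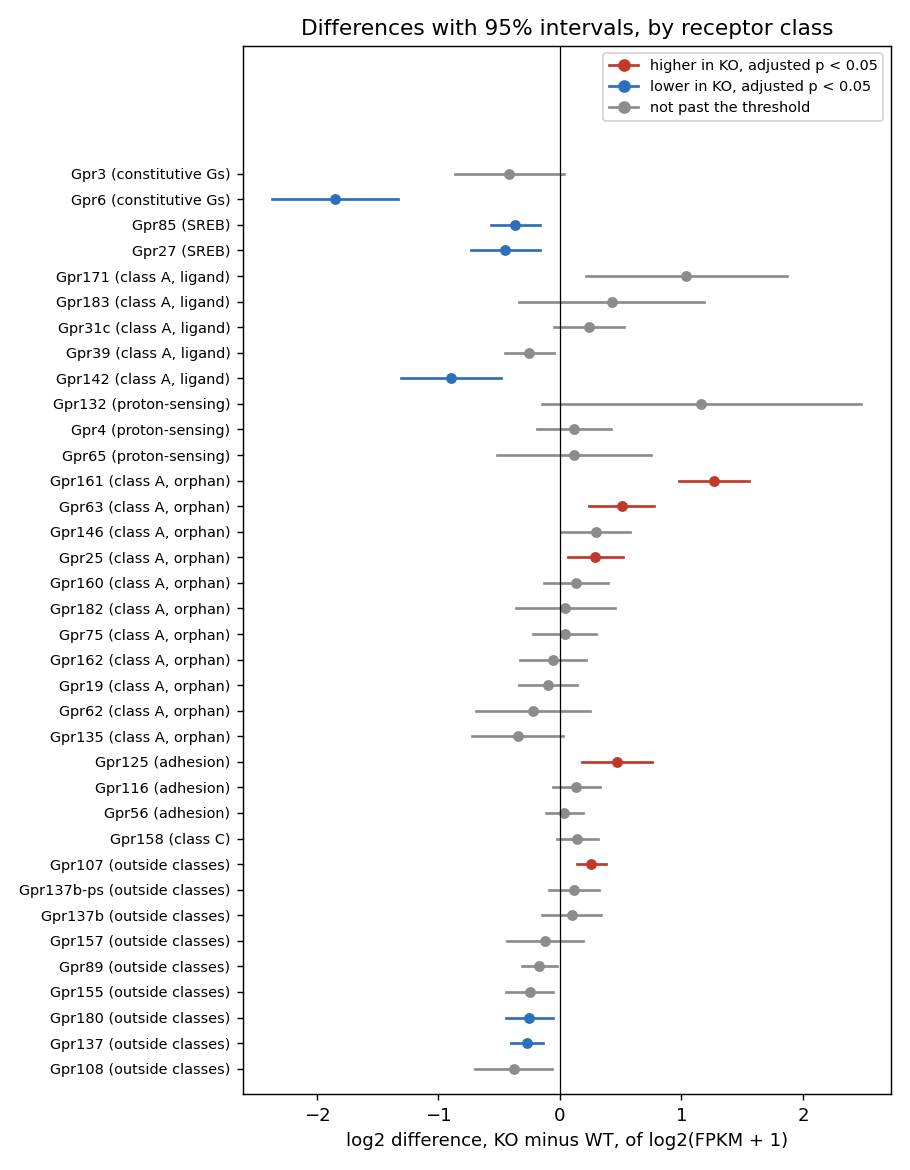
Log2 difference of log2(FPKM + 1), KO minus WT (horizontal axis), of each of the 36 genes, with 95% intervals from limma, ordered by receptor class. The 5 genes past the threshold and higher in KO are red, the 6 past it and lower are blue, and the widest interval is that of Gpr132.

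Of 3 adhesion receptors, 1 rose. Gpr56, now named Adgrg1, a receptor of collagen III, was the most abundant of the 36 genes and made up 30.9% of their summed mean FPKM. It was at 84.9, 81.1 and 87.2 FPKM in KO, against 83.9, 76.7 and 86.4 FPKM in WT. The groups overlapped, and the log2 difference was 0.04 (95% interval -0.12 to 0.19, adjusted p = 0.67), or -0.21 and -0.13 when the libraries were set to equal sums outside the acinar genes and outside acinar and insulin genes. Gpr125, now named Adgra3, a receptor linked in zebrafish to planar cell polarity, was at 3.89, 4.29 and 5.64 FPKM in KO, against 2.87, 3.26 and 2.91 FPKM in WT. It rose to 4.60 ± 0.916 FPKM in KO, against 3.01 ± 0.219 FPKM in WT (log2 difference 0.47, SE 0.12, adjusted p = 0.024). KO replicate 3 was the highest library, and in KO replicate 1 alone the difference was 0.29 (adjusted p = 0.086). Gpr125 lost its call without WT replicate 1, 2 or 3 (adjusted p = 0.086, 0.0507 and 0.084). Gpr116, now named Adgrf5, of lung epithelium and endothelium, was at 5.40 ± 0.413 FPKM in KO and 4.83 ± 0.365 FPKM in WT (adjusted p = 0.22).

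The class C orphan Gpr158, a synaptic receptor that binds a regulator of G protein signalling, was the only one of its class at or above the minimum. It was at 18.1, 16.7 and 19.7 FPKM in KO, against 15.8, 16.1 and 17.0 FPKM in WT, and did not pass (log2 difference 0.14, 95% interval -0.02 to 0.31, adjusted p = 0.14). Only KO replicate 2 lay within the WT range. Gpr179, of the same class, was under the minimum, at 0.272 ± 0.0848 FPKM in KO and 0.552 ± 0.0713 FPKM in WT, without overlap.

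The 9 Gpr-named membrane proteins outside the classical receptor classes included 5 of the 8 most abundant genes, and 1 rose and 2 fell. Gpr107, a Golgi protein of membrane traffic, was at 18.2, 17.2 and 18.2 FPKM in KO, against 14.9, 14.99 and 14.4 FPKM in WT. It rose by a small step to 17.9 ± 0.540 FPKM in KO, against 14.8 ± 0.292 FPKM in WT (log2 difference 0.26, SE 0.05, adjusted p = 0.0098, and 0.0505 without WT replicate 3). When the libraries were set to equal sums outside the acinar genes, the difference was 0.02 (adjusted p = 0.94), while scaling by median ratios gave 0.27 (adjusted p = 0.0077). Gpr137, a lysosomal protein of the mTORC1 pathway, was at 14.1, 13.1 and 13.2 FPKM in KO, against 16.9, 15.9 and 16.7 FPKM in WT. It fell to 13.5 ± 0.528 FPKM in KO, against 16.5 ± 0.565 FPKM in WT (log2 difference -0.27, SE 0.06, adjusted p = 0.011). Without WT replicate 1 or 3 its adjusted p was 0.055 and 0.053. Of its exon bases, 15.4% overlap Bad on the other strand.

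Gpr180 was at 16.5, 13.4 and 14.3 FPKM in KO, against 18.3, 17.2 and 17.6 FPKM in WT (log2 difference -0.25, SE 0.08, adjusted p = 0.047). KO replicate 1, the library with the lowest acinar sum, lay closest to WT, and alone it gave a log2 difference of -0.09 (adjusted p = 0.36). Gpr180 lost its call without WT replicate 1, 2 or 3 (adjusted p = 0.15, 0.089 and 0.12) and without KO replicate 2 or 3 (0.11 and 0.099). Gpr108, a Golgi relative of Gpr107, was at 23.0, 20.7 and 28.8 FPKM in KO, against 32.4, 27.4 and 35.2 FPKM in WT. Its groups overlapped through KO replicate 3 (log2 difference -0.38, adjusted p = 0.062), without which it was called lower (-0.51, adjusted p = 0.018).

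Gpr89, the Golgi pH regulator, was at 10.2, 10.2 and 11.1 FPKM in KO, against 11.7, 11.7 and 12.5 FPKM in WT (log2 difference -0.17, adjusted p = 0.061, and 0.046 without KO replicate 3). Gpr155, a lysosomal cholesterol sensor, was at 2.90 ± 0.218 FPKM in KO and 3.64 ± 0.285 FPKM in WT (adjusted p = 0.052, and 0.030 without KO replicate 1). In both genes all KO libraries lay below all WT libraries. Of the exon bases of Gpr89, 24.8% overlap Pdzk1 on the other strand. Gpr137b and its near copy Gpr137b-ps, between which fragments are split by estimate, were at 3.59 ± 0.513 and 3.78 ± 0.456 FPKM in KO, and at 3.28 ± 0.248 and 3.40 ± 0.118 FPKM in WT. Gpr157 was at 0.741 ± 0.263 FPKM in KO and 0.884 ± 0.134 FPKM in WT.

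**Figure D4:**
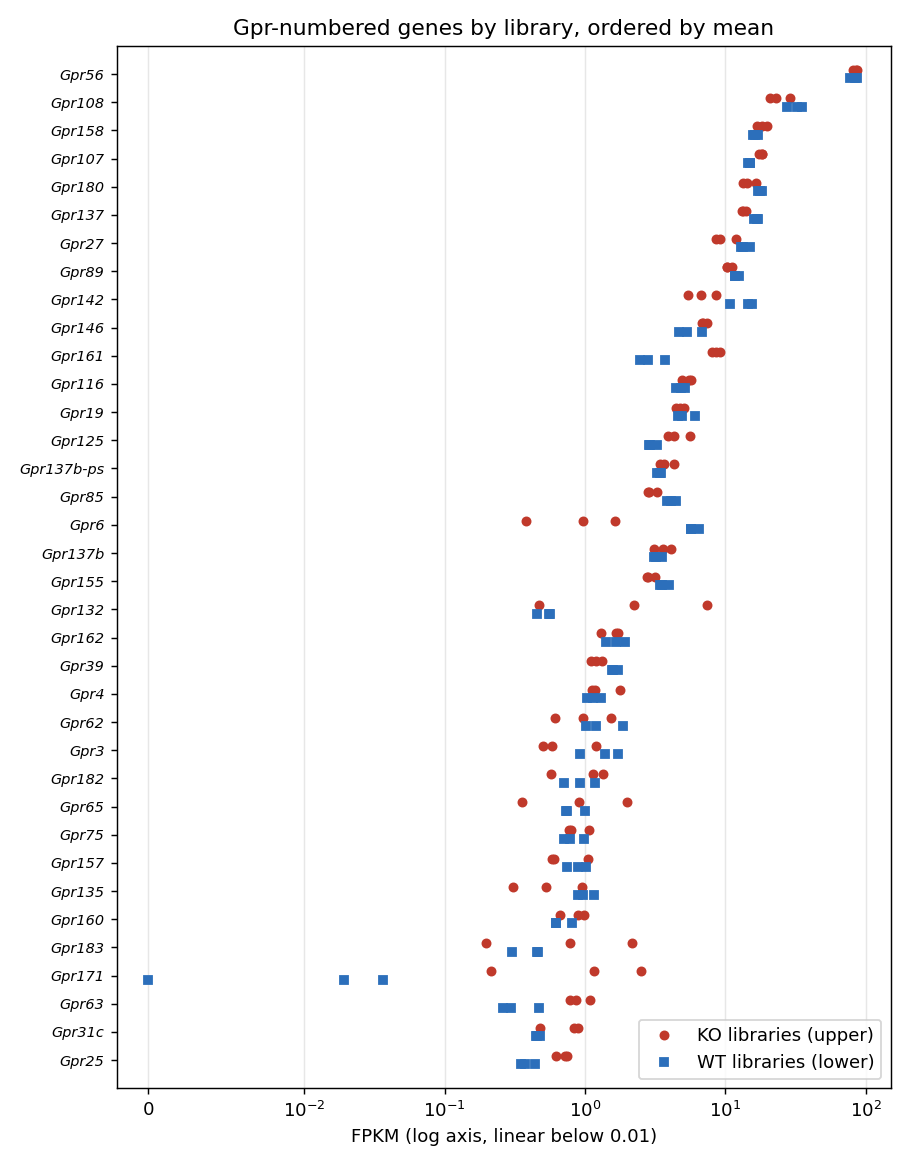
FPKM (horizontal axis, logarithmic and linear below 0.01) of the 36 genes in each KO library (red circles, upper in each row) and each WT library (blue squares, lower), ordered by the mean of 6 libraries. Gpr56 stands at the top near 83.4 FPKM, most genes show KO and WT points close together, and Gpr6, Gpr161 and Gpr171 show the widest gaps between the groups. The KO points of Gpr132 spread widely, and its groups overlap.

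By level, 9 of the 36 genes had a mean of at least 10 FPKM, 16 lay from 1 to under 10 and 11 under 1. The minimum fell between Gpr18 at 0.490 FPKM and Gpr25 at 0.542 FPKM. Of the 56 genes under it, 5 were listed at 0 in every library (Gpr26, Gpr50, Gpr101, Gpr139 and Gpr149), and 22 were above 0 in all 6. Among them, all KO libraries lay above all WT libraries for Gpr55, Gpr126 and Gpr128, and below them for Gpr124, Gpr173 and Gpr179. Gpr128, an adhesion receptor, measured 0.0138, 0.169 and 0.282 FPKM in KO replicates 1, 2 and 3 and was listed at 0 in the WT libraries. Gpr126, an adhesion receptor of Schwann cells, was at 0.189, 0.489 and 0.306 FPKM in KO, against 0.0838, 0.155 and 0.0566 FPKM in WT. The estrogen receptor Gpr30 was at 0.156, 0.349 and 0.688 FPKM in KO, against 0.0925, 0.188 and 0.0484 FPKM in WT, and its KO values were higher where the acinar sum and Krt19 were higher. These low genes were not tested.

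The partners of these receptors changed in both directions, read against the same 37.7% of all rows. Of 13 G protein alpha subunit genes tested, 3 rose and 5 fell, with a median log2 difference of -0.16. Gnaz, an inhibitory subunit, was at 27.9 ± 0.574 FPKM in KO and 18.1 ± 1.15 FPKM in WT (log2 difference 0.60, adjusted p = 0.0011). Gnai2 and Gnao1, 2 other inhibitory subunits, named after their values were seen, fell to 139 ± 12.3 and 66.8 ± 6.66 FPKM in KO, against 180 ± 0.458 and 89.9 ± 0.213 FPKM in WT (adjusted p = 0.011 and 0.0072). Gnai3, also inhibitory, and Gna13 rose, by log2 differences of 0.51 each, while Gnat2, the cone transducin, fell by 0.91 on the log2 scale to 8.08 ± 0.956 FPKM in KO, against 16.04 ± 1.503 FPKM in WT. When libraries were set to equal sums outside the acinar genes, 1 of the 13 was called, Gnat2. The other 4 falls and the rises of Gnaz, Gnai3 and Gna13 (adjusted p = 0.20, 0.32 and 0.27) did not pass with equal sums. Scaling by median ratios called 8 of the 13.

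Of 7 tested genes for receptor-sorting, Gprin and Gprc5 or Gprc6 proteins, 5 rose and 1 fell. With median-ratio scaling 6 of the 7 were called. Gprc5c, an orphan of the retinoic acid-inducible group, rose to 22.2 ± 0.572 FPKM in KO, against 10.8 ± 0.563 FPKM in WT (log2 difference 0.98, adjusted p = 0.00039). Gprasp2, which sorts internalised receptors, rose to 28.2 ± 1.99 FPKM in KO, against 20.7 ± 1.53 FPKM in WT (adjusted p = 0.0071, and 0.53 with equal sums outside the acinar genes). Gprc6a, a receptor of basic amino acids, fell to 0.384 ± 0.0911 FPKM in KO, against 0.953 ± 0.0973 FPKM in WT (adjusted p = 0.011). Gprin1 rose by 0.25 (adjusted p = 0.022) but not without WT replicate 1, 2 or 3 (0.091, 0.055 and 0.059).

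Of 6 tested arrestin and receptor kinase genes, 2 rose and 1 fell. Grk5 fell to 10.8 ± 0.421 FPKM in KO, against 14.7 ± 1.10 FPKM in WT (log2 difference -0.40, adjusted p = 0.0061). Arrb1, which encodes beta-arrestin-1, was at 1.29, 2.37 and 3.27 FPKM in KO, against 0.815, 0.812 and 0.888 FPKM in WT, higher where the acinar sum and Krt19 were higher (log2 difference 0.80, adjusted p = 0.025). Its call was lost without WT replicate 1, 2 or 3 (adjusted p = 0.082, 0.074 and 0.075) and without KO replicate 2 (0.073). Grk6 rose by 0.28 (adjusted p = 0.049) and lost its call without KO replicate 1 or 2 (0.076 and 0.12) and without WT replicate 1, 2 or 3 (0.13, 0.14 and 0.087).

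Among the 11 Gpr-numbered genes past the threshold, Gpr161 and Gpr6 were called in each of the 16 other settings, and Gpr142 in 15. Gpr25 was called in 3 of its 15, Gpr180 in 6 of 16 and Gpr27 in 7 of 16. The log2 difference of Gpr161 ranged from 1.06 to 1.502 and that of Gpr6 from -2.65 to -1.39 over these settings. With equal sums outside the acinar genes, Gpr161, Gpr6 and Gpr142 were called, and the other 8 had adjusted p from 0.054 to 0.94. These settings include KO replicate 1 alone, with its 1 KO library, which called 6 of the 36 genes, beside 24.1% of all rows, and the fit with a term for the acinar level called 4.

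**Figure D5:**
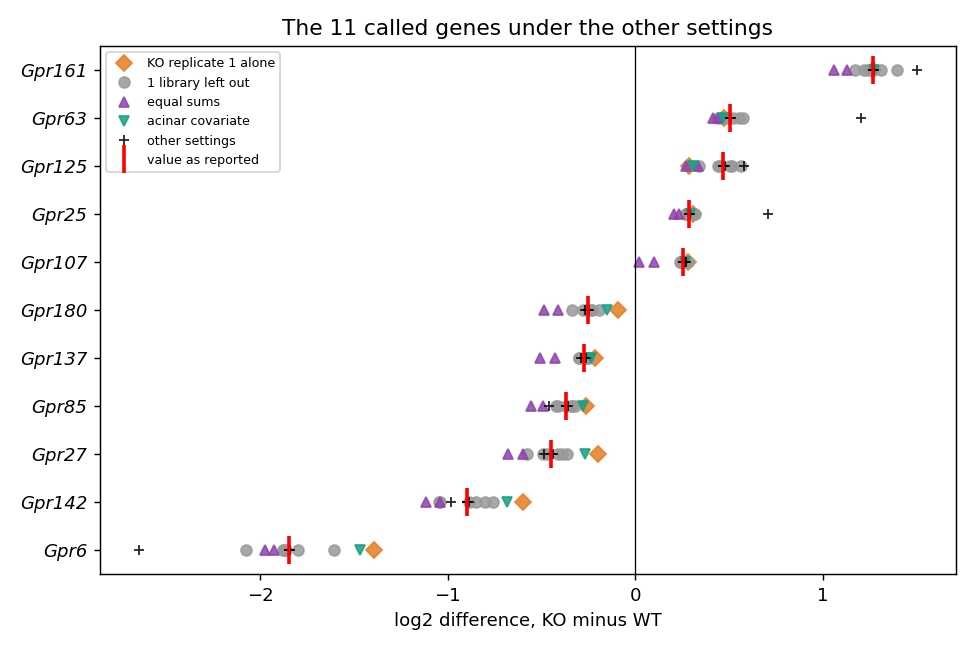
Log2 difference, KO minus WT (horizontal axis), of the 11 genes past the threshold (rows) as reported (red bars) and under the other settings (symbols by kind of setting). Gpr161 stays between 1.06 and 1.502 and Gpr6 between -2.65 and -1.39, and no gene of the 11 crosses 0. The crosses farthest from the bars are the pseudocount of 0.1.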

How the data were processed

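RNA sequencing values of islets were compared between 3 KO and 3 WT libraries, grouped and numbered by the sample titles. The submitters' processing notes name TopHat2 2.0.8b, Cuffdiff 2.1.1 and build mm10. The files name no unit; the authors' deposited numbers were read as FPKM, the unit Cuffdiff reports. The sources used here do not give the annotation, the strand setting or the scaling between libraries.

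FPKM were used as deposited. Rows with a mean of at least 0.5 FPKM were tested on log2(FPKM + 1) with limma 3.58.1 in R 4.3.3 (trended eBayes, group term only, two-sided tests with 4 residual degrees of freedom before moderation). Benjamini-Hochberg adjustment ran over all rows, with a threshold of 0.05. The test was checked on simulated data. Genes given by library were Ffar3, members past the threshold, the 8 most abundant and the most abundant of each class with none of these; further ones were added after seeing values. A few genes are not reported here. The genes and lists were chosen with earlier results of these data known. Relative depth came from values under 0.06 FPKM (window of 0.02 log2). Positions are from GENCODE M21 (GRCm38, which mm10 denotes) for 35 of 36 genes, 14 of which share exon bases with another gene; promoters are from RefSeq. Tools were Python 3.11.15, pandas 2.3.3, scipy 1.17.1 and matplotlib 3.10.9.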

Additional observations from a re-analysis of the deposited data

How the results depend on the processing

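The count of 11 Gpr-numbered genes (5 higher, 6 lower) and of 4779 rows in all (2450 and 2329) depended most on the kind of scaling and on which libraries were used. Scaling by median ratios called 11 of the 36 (5 higher, 6 lower) and 4824 rows in all (2529 and 2295), and all 36 kept their sign and call. With equal sums outside the acinar genes, 5 of the 36 were called (2 higher, 3 lower) and 1719 rows in all (553 and 1166). With insulin rows also left out of the sums, chosen after seeing the data, it was 4 (1 and 3) and 1683 (641 and 1042). The equal-sum scalings moved the median log2 difference of all rows to -0.21 and -0.14. The acinar covariate gave 4 (2 and 2) and 2993 in all, 1295 of them lower. KO replicate 1 alone, with the spread taken from WT, gave 6 (1 lower) and 3064 in all, 1222 of them lower. At a mean of at least 1 FPKM, fewer genes were tested and 3 were higher. Leaving out 1 library gave 3 to 14 of the 36 (1 to 6 higher, 2 to 9 lower) and 2413 to 5969 rows (1356 to 3034 higher, 1057 to 2935 lower), lowest among the 36 without WT replicate 3. Ffar3 stayed between -2.75 and -2.53 in these fits. The cause of these shifts was not tested.

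Of the genes that did not pass, 11 changed sign in some setting, all with adjusted p of at least 0.45. Their log2 differences were then Gpr182 -0.052, Gpr75 -0.079, Gpr137b-ps -0.076, Gpr137b -0.090, Gpr116 -0.075, Gpr158 -0.093, Gpr4 -0.013 and Gpr56 -0.21 with equal sums outside the acinar genes. They were Gpr75 -0.029 and Gpr162 0.028 with the acinar covariate. They were Gpr75 -0.042, Gpr160 -0.014 and Gpr162 0.030 in KO replicate 1 alone. They were Gpr182 -0.015, Gpr75 -0.041, Gpr137b-ps -0.011, Gpr137b -0.027, Gpr116 -0.0051, Gpr158 -0.014 and Gpr56 -0.13 with insulin rows also left out. Leaving out 1 library gave -0.074 to 0.21 for Gpr182, -0.18 to 0.39 for Gpr65, -0.0030 to 0.19 for Gpr4, -0.032 to 0.098 for Gpr75, -0.13 to 0.021 for Gpr162 and -0.013 to 0.072 for Gpr56.

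The replicate numbers did not pair the libraries: deviations from the group means of same-numbered libraries correlated at -0.20, -0.08 and 0.02. The replicate block called 10 of the 36 and 3880 rows. Low values limit the genes under 1 FPKM most, in KO replicate 3 above all.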
